A study of Homo sapiens with 18 samples.

Results

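The response of the histone mark H3K27me3 to PR-957 was described from the 4 of 18 samples of the series whose labels name H3K27me3. The cells were MOLM-13, a line of acute myeloid leukemia with a KMT2A rearrangement, and the method was Cut&Tag, where a Tn5 transposase tethered by an antibody cleaves DNA beside a histone mark. One group of 2 libraries came from cells given 100 nM PR-957 (ONX-0914), an inhibitor of the immunoproteasome subunit PSMB8, and the other group of 2 libraries from cells given the diluent DMSO, both for 72 h according to the labels, while a legend of the study gives 48 h. All 4 libraries share the cell line, the time and the antibody target, and the study asked how loss of immunoproteasome function alters gene control in KMT2A-rearranged leukemia. MOLM-13 is a single line, and the replicates are not stated to be separate cultures, so the p-values measure the spread between these samples, which may be technical.

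H3K27me3 is laid down by Polycomb repressive complex 2, whose catalytic subunit is EZH2, and is bound by Polycomb repressive complex 1. It marks genes that a cell keeps silent, above all the regulators of other lineages and of embryonic development, where it spreads over wide domains around CpG-rich promoters. Leukemias with a KMT2A fusion keep part of the HOXA cluster and its cofactor MEIS1 active, genes that differentiated blood cells cover with this mark.

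The values are counts on intervals, and intervals that overlap were merged into a locus that took the count of its widest interval. Summed over loci, the DMSO libraries had 2644014 and 3157003 counts and those of PR-957 had 2766209 and 3235087. At this depth a tested locus had a median of 28.2 counts per library, so that differences at loci with few counts, large ones included, could go undetected, and counts of calls depend on coverage. The mark lay where Polycomb targets lie: all 39 HOX genes and 132 of 144 developmental transcription factor genes had a locus within 2 kb of a transcription start site (TSS). By contrast 1 of 77 cytosolic ribosomal protein genes, 0 of 43 proteasome genes and 3 of 32 myeloid genes had one, and the myeloid genes SPI1, CEBPA, CD33 and MPO had none.

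Promoter sequences show what kind of DNA the loci with the strongest changes cover. The promoters are those of the first 3 lower and the first 3 higher loci, ordered by p-value, whose promoter window lies inside the locus. Windows are those of the RefSeq table of build GRCh38.p14. That of SKIDA1, which shares the smallest adjusted p of the lower loci with DOCK9, does not lie inside its locus. Each chosen promoter is printed 5′ to 3′ over 300 bases around the TSS, with every CpG, the dinucleotide that clusters at Polycomb targets, in capitals. The lower loci gave EGFLAM (chr5:38445296-38445595, plus strand), IL20RA (chr6:137044225-137044524, minus strand) and ARHGEF12 (chr11:120336163-120336462, plus strand). The higher loci gave CRIP1 (chr14:105486636-105486935, plus strand), MXRA8 (chr1:1358498-1358797, minus strand) and C1QTNF12 (chr1:1246673-1246972, minus strand).
EGFLAM: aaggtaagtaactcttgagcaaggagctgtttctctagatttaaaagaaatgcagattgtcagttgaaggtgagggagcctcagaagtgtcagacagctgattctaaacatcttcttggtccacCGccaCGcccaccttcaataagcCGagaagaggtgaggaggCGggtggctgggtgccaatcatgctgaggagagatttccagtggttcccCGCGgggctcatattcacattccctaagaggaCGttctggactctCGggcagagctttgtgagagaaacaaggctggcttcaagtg
IL20RA: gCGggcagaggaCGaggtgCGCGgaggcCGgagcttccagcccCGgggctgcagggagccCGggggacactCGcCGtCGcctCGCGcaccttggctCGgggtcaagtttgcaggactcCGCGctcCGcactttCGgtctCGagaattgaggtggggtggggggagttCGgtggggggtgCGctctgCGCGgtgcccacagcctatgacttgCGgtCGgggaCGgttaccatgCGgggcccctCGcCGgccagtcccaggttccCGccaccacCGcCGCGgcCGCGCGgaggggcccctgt
ARHGEF12: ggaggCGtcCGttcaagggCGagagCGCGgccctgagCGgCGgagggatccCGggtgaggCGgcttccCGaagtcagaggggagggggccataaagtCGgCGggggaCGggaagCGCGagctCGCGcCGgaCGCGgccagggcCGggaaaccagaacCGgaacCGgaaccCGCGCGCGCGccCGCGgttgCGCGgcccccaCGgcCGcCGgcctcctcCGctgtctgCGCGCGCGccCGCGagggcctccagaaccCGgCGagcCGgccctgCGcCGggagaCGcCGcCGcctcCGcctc
CRIP1: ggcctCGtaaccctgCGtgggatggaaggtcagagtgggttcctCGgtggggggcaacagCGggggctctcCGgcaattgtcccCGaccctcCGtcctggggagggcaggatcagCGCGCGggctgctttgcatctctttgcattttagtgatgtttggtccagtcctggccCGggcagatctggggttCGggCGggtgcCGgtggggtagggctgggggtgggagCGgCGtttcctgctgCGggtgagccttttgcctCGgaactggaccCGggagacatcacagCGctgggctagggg
MXRA8: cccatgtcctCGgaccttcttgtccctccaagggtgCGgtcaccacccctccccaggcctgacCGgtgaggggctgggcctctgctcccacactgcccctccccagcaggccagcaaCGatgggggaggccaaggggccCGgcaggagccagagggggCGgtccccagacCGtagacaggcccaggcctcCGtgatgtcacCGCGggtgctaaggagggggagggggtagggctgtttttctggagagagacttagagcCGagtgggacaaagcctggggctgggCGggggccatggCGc
C1QTNF12: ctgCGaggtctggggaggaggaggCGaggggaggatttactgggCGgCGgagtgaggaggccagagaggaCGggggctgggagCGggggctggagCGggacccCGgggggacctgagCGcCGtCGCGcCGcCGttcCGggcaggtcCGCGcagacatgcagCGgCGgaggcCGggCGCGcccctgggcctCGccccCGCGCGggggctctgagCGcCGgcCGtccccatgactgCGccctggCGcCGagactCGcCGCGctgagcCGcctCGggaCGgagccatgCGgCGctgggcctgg

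The EGFLAM promoter holds 8 CpG, and 39.3% of all promoters in the table hold fewer. IL20RA has 35 CpG (85.9% of promoters have fewer) and ARHGEF12 has 51 (99.0%). Among the higher loci, CRIP1 has 20 (58.8%), MXRA8 has 13 (48.3%) and C1QTNF12 has 40 (92.4%). EGFLAM thus lies below the median of all promoters, MXRA8 near it and the other 4 above it. Over all 35116 promoters the median was 14 CpG, against 23 in the 4329 promoters that lie inside an H3K27me3 locus. The 333 promoters inside a locus that fell under both scalings described next had a median of 20 CpG and a GC content of 61.7%. The 293 inside a locus that rose under library-size scaling also had a median of 20, with a GC content of 68.3%.

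In PR-957, the H3K27me3 of wide Polycomb domains made up a smaller share of the counts, most of all in domains of low GC content. Domains at SKIDA1, DOCK9, EGFLAM, TBX3 and the HOXA cluster and near MEF2C fell, with changes of -40.9% at SKIDA1 and -29.3% at the HOXA cluster. A few GC-rich loci rose, such as those of CRIP1 and MXRA8, which were 28.6% and 31.8% higher. These values compare each locus with the bulk of the loci, because TMM scaling sets most loci to no change. Scaling by library size, which sets the total to no change, moved the median log2 fold change over all tested loci from 0.03 to 0.24, a shift of -0.21 for TMM minus library size. No external standard is in the files, so the total amount of the mark was not measured, and less mark per cell and fewer marked cells cannot be told apart.

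Of 13899 loci, 12355 had enough counts to be tested by edgeR's quasi-likelihood test, with p-values adjusted by Benjamini-Hochberg and called at 0.05. Under TMM, 498 loci changed (4.03% of those tested), of which 477 were lower (3.86%) and 21 higher (0.17%). Under library size, 176 were lower (1.42%) and 304 higher (2.46%). The 176 and the 21 were called in the same direction under both scalings, so that 301 loci were lower under TMM alone and 283 higher under library size alone. In each of the 477 lower and the 21 higher loci, both PR-957 libraries lay on one side of both DMSO libraries. Of all 12355 loci tested, both lay below in 2336 and above in 2372, so this separation was common. Most changes were small: the median log2 fold change was -0.41 in the lower and 0.56 in the higher loci, and 84 lower and 10 higher loci changed at least 1.5-fold. Called lower loci were well covered, with a median of 966.5 counts against 250.8 in the called higher loci.

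These counts changed when single libraries were left out. A fit without 1 library has a group of 1, so its spread comes from the other pair alone, which is the more variable PR-957 pair when a DMSO library is missing, and a call can be lost while the fold change stays. Under TMM, 226 loci were lower and 5 higher without DMSO replicate 1, and 204 lower and 8 higher without DMSO replicate 2. The higher loci numbered 13 when PR-957 1 was left out and 38 when PR-957 2 was. Under library size, 116 were lower and 129 higher without DMSO replicate 1, 98 lower and 129 higher without DMSO replicate 2, and 201 higher without PR-957 replicate 1. Of the 477 lower loci, 136 were also lower in every TMM fit that left out 1 library, whereas 0 of the 21 higher loci were also higher in all 4 of those edgeR fits. Under library size, only a part of the 176 lower and a part of the 304 higher loci were also called, in the same direction, in all 4. DESeq2 with all 4 libraries called 8 loci higher, and 332 loci were higher at an unadjusted p under 0.05 in edgeR. The rank correlation of the loci was 0.902 between the DMSO libraries and 0.853 between the PR-957 libraries, and 0.878 to 0.902 between libraries of different treatment. Each PR-957 library was therefore closer to both DMSO libraries than to the other PR-957 library by this measure.

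**Figure D1:**
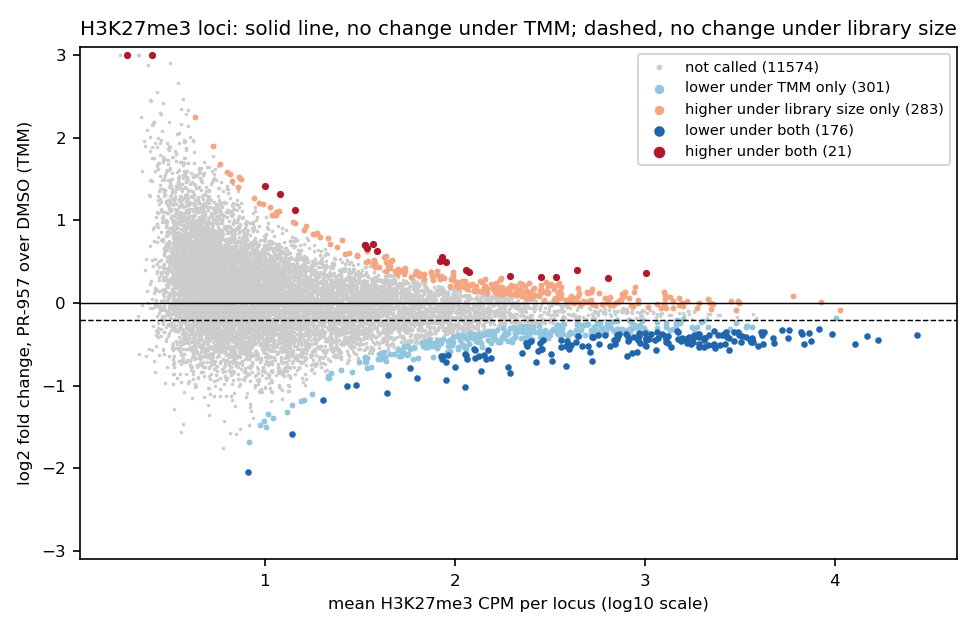
Each point is 1 of 12355 tested H3K27me3 loci, with its mean CPM over the 4 libraries on a log10 scale and its log2 fold change of PR-957 over DMSO under TMM, drawn clipped at -3 and 3. The 176 loci lower under both scalings lie below the dashed line of no change under library size (-0.21), and the 283 loci higher under library size alone lie above it, with a direction that depends on the scaling only between the 2 lines of no change.

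The strongest lower loci, named by the gene at or nearest to them, were Polycomb domains with a GC content of 40.3% to 51.7%, against a median of 50.6% over all loci tested. They were chosen by the smallest p-values among called loci whose groups did not overlap, so their separation follows from the choice. Values are CPM, the counts scaled to a common depth with the TMM factors, in the order DMSO 1, DMSO 2, PR-957 1 and PR-957 2. At the promoter of SKIDA1, which encodes a protein with a SKI/DACH domain, a domain on chromosome 10 from 21498328 to 21520667 had 502.5, 467, 287 and 285 CPM. A domain within DOCK9, a gene for an exchange factor of the GTPase CDC42, had 646, 655, 418 and 380 CPM. Both PR-957 libraries were below both DMSO libraries by several times the distance between replicates. SKIDA1 fell from 485 ± 24.8 CPM in DMSO to 286 ± 1.27 CPM in PR-957 (mean ± SD, n = 2 each), and its log2 fold change was -0.76 (standard error 0.079, edgeR adjusted p = 4.15e-18). For DOCK9, on chromosome 13 from 99039351 to 99068852, it was -0.71 (standard error 0.073, edgeR adjusted p = 4.15e-18). Under library size they fell as well, with log2 fold changes of -0.55 at SKIDA1 and -0.50 at DOCK9.

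MEF2C encodes a MADS-box transcription factor of muscle and blood progenitors that KMT2A fusions activate. A domain between genes, on chromosome 5 from 88659013 to 88696975 and 34852 bp from the MEF2C start, had 3416, 3236, 2265 and 2210.0 CPM. EGFLAM, the gene of the matrix protein pikachurin, had 981, 976, 624 and 633 CPM. The pairs of replicates lay close together, and the groups did not overlap at either locus, as the choice of these loci required. The log2 fold change was -0.57 at the domain near MEF2C (standard error 0.060, edgeR adjusted p = 1.01e-17) and -0.37 under library size. At EGFLAM it was -0.64 (standard error 0.068, edgeR adjusted p = 1.42e-17) and -0.43 under library size.

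IL20RA encodes a receptor chain for interleukins of the IL-20 family and ARHGEF12 an exchange factor of RhoA. IL20RA had 1069, 999, 679 and 676 CPM, and ARHGEF12 had 1142, 1046, 717 and 730 CPM. These 2 domains had the lowest GC content of the 10 strongest, 41.3% and 40.3%, while the windows printed above for them are rich in CpG. Their log2 fold changes were -0.61 at IL20RA (edgeR adjusted p = 2.47e-16) and -0.60 at ARHGEF12 (edgeR adjusted p = 8.02e-16), and -0.40 and -0.39 under library size. The T-box repressor gene TBX3 had 2806, 2760.0, 1946 and 1874 CPM, and SP9, a zinc finger gene of forebrain interneurons, had 1389, 1351, 941 and 900.0 CPM. Both are regulators of organs outside the blood. The log2 fold change was -0.54 at TBX3 (edgeR adjusted p = 8.86e-16) and -0.57 at SP9 (edgeR adjusted p = 1.32e-15), and -0.34 and -0.37 under library size. A locus 37524 bp from GPAM, a gene of glycerolipid synthesis, had the largest fall of these 10, from 241 and 264 CPM to 136 and 145 CPM, a log2 fold change of -0.85 (standard error 0.097, edgeR adjusted p = 2.36e-15) and -0.64 under library size.

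The HOXA domain completed the 10 and is by far the most covered of them. It spans 119893 bp on chromosome 7 from 27143865 to 27263758 and had 15410.0, 14650.0, 11290.0 and 9976 CPM. Within 2 kb of it lie starts of HOXA3, HOXA5, HOXA6, HOXA7, HOXA9, HOXA10, HOXA11, HOXA13 and EVX1, but not of HOXA4. The mean was 15030.0 ± 541 CPM under DMSO and 10630.0 ± 928 CPM under PR-957 (SD, n = 2 each), which makes its log2 fold change -0.50 (standard error 0.057, edgeR adjusted p = 2.36e-15) and -0.30 under library size. All 10 of these loci kept an adjusted p under 0.05 in every alternative setting tried, with at most 0.0430 at the HOXA domain (without DMSO replicate 1), though those that changed less than 1.5-fold, the HOXA domain and TBX3 among them, do not pass where that fold is required.

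The strongest higher loci were narrower and GC-rich. A locus at CRIP1 and CRIP2, genes of small LIM domain proteins, and at the tubulin complex gene TEDC1 had 873, 895, 1190.0 and 1085 CPM. MXRA8, a gene of a cell adhesion protein that also serves as an alphavirus receptor, had 391, 364, 507 and 487 CPM. Both PR-957 libraries stood above both DMSO libraries, as the choice of these loci required. The log2 fold change was 0.36 at CRIP1 and CRIP2 (standard error 0.066, edgeR adjusted p = 2.64e-06) and 0.40 at MXRA8 (standard error 0.076, edgeR adjusted p = 1.26e-05), and under library size 0.57 and 0.60. C1QTNF12, the gene of the adipokine adipolin, shares a locus with B3GALT6 and SDF4 that had 596, 552, 777 and 642 CPM, a log2 fold change of 0.30 (edgeR adjusted p = 0.000783). Here PR-957 replicate 2 was nearer to DMSO replicate 1 than to PR-957 replicate 1.

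The other 7 higher loci lie at RAP1GAP, HCN2, RBFOX3, CSPG5, COL16A1, RAB26 and PALM, with log2 fold changes of 0.31 to 0.72 under TMM. HCN2 encodes a pacemaker channel, RBFOX3 the splicing factor NeuN, COL16A1 a collagen and RAB26 a GTPase of secretory granules. None of the 10 passed under every setting. With TMM factors taken from the loci under 2 kb all 10 lost the call, and each lost it in at least 1 fit without a library. Without DMSO replicate 1 the adjusted p was 0.0768 at CRIP1, 0.0562 at C1QTNF12 and 0.143 at HCN2, and without DMSO replicate 2 it was 0.0963 at MXRA8, 0.268 at RAP1GAP and 0.744 at PALM. RBFOX3 had 0.489 without DMSO replicate 1, COL16A1 0.186 and RAB26 0.400 without PR-957 1, and CSPG5 0.216 without PR-957 2. Over all settings the highest adjusted p was 0.378 at CRIP1, 0.263 at MXRA8 and 0.713 at C1QTNF12.

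Lower calls were concentrated in wide loci. Wide loci also hold more counts, both in all and per kb, and a change is called more readily where counts are high. The shares called below were not compared at equal coverage, so they do not separate width from coverage. Of 494 loci at least 20 kb wide, 217 were lower under TMM (43.9%) and 127 under library size (25.7%), against 3.86% and 1.42% of all loci tested. Of 961 loci of 10 to 20 kb, 151 were lower under TMM (15.7%) and 34 under library size (3.54%), and of 2161 loci of 5 to 10 kb, 84 (3.89%) and 13 (0.602%). Of the 3639 loci of 1 to 2 kb, 1 was lower under TMM. Wide loci also held more of the loci that were higher under library size, 90 of the 494 (18.2%) and 117 of the 961 (12.2%), so a wide domain was more often called in either direction. Without DMSO replicate 1 or 2, 113 and 108 of the 494 were lower under TMM, 92 and 80 under library size, and 46 and 41 higher under library size. Lower loci of 10 to 20 kb and of 5 to 10 kb were fewer under TMM without DMSO 1, DMSO 2, PR-957 1 or PR-957 2. The drop was largest without a DMSO replicate. Under library size, leaving out these libraries in the same order made the 34 lower loci of 10 to 20 kb 22, 14, 19 and 40, the 13 of 5 to 10 kb 2, 4, 4 and 11, and the 117 higher loci 52, 55, 81 and 71.

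The share of each library's counts in wide loci does not depend on the scaling between libraries. Loci of at least 20 kb held 66.3% and 66.0% of the counts in DMSO and 63.5% and 62.2% under PR-957, a mean of 66.2% ± 0.205 against 62.8% ± 0.917 (SD, n = 2 each). Loci under 5 kb held 7.34% and 7.38% in DMSO and 8.69% and 9.36% in PR-957. The groups did not overlap for either share, and both differences were larger than the spread between replicates. For loci of at least 10 kb, the mean share was 82.6% ± 0.091 under DMSO and 80.1% ± 0.723 under PR-957 (SD, n = 2 each), a difference of -2.49 percentage points. This comes from the widest class alone, since loci of 10 to 20 kb held 16.3% and 16.5% in DMSO and 17.1% and 17.4% in PR-957, and among domains of at least 20 kb the GC-richest group held 15.8% and 15.8% against 17.6% and 16.9%. By exact permutation (two-sided) each of these shares has p = 0.333, the smallest that 2 libraries against 2 allow.

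Median fold changes were lower in wide loci as well, though not in step with width. The median log2 fold change was 0.05 in loci under 1 kb, 0.19 in loci of 1 to 2 kb and -0.18 in loci of at least 20 kb under TMM, and 0.26, 0.40 and 0.02 under library size. Loci of at least 10 kb minus loci under 2 kb gave -0.31, a 1.24-fold difference. Each library's own value against the mean of all 4 was 0.098 and 0.113 in DMSO and -0.127 and -0.284 in PR-957, so the groups did not overlap. Narrow loci hold few counts: among loci with a mean of at least 50 counts the difference was -0.051, and with cyclic loess offsets, which remove any trend on the count, it reversed to 0.14.

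The counts also shifted toward loci of low signal density, the counts per kb of a locus. Of 5 equal groups by density, the sparsest held 0.76% and 0.73% of the counts in DMSO and 1.17% and 1.37% in PR-957, and the densest 90.2% and 90.2% against 88.5% and 87.7%, without overlap. The median log2 fold change was 0.40 in the sparsest and -0.13 in the densest group under TMM, and 0.61 and 0.077 under library size. The densest loci are also wider, with a median width of 9514 bp against 1733 bp in the sparsest, and less signal in wide domains and more signal in sparse loci cannot be told apart from shares.

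Among wide domains, GC content separated those that were lower from those that were not. The loci were divided into 5 equal groups by GC content, with bounds at 45.02%, 48.58%, 51.87% and 55.85%. Of 27 domains of at least 20 kb in the GC-poorest group, 21 fell under TMM and 17 under library size, and of 81 in group 2, 64 and 46 did. In group 3 it was 77 and 44 of 122 domains. Group 4 was mixed under library size, with 17 of 137 domains lower and 26 higher, while under TMM 41 were lower. In the GC-richest group, 14 of 127 domains were lower and 1 higher under TMM, whereas 3 were lower and 60 higher under library size. Low GC content thus went with a loss in domains of the same width under both scalings, and the direction in the GC-richest group depended on the scaling.

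The difference between the GC groups does not depend on a constant scaling factor. The median log2 fold change of domains of at least 20 kb was -0.45 in the GC-poorest and -0.045 in the GC-richest group under TMM, and -0.25 and 0.16 under library size. Their difference was 0.41, or 1.33-fold, and the value of each library against the mean of all 4 was -0.229 and -0.175 in DMSO and 0.235 and 0.119 in PR-957 (pooled SD 0.064). Over all widths, the GC-richest group held 25.3% and 25.4% of the counts in DMSO and 28.8% and 28.1% in PR-957, which do not overlap. With the trend of the log ratio on GC content removed over all loci, the difference was 0.27, and 19, 62, 76, 51 and 28 domains were lower from group 1 to group 5. A technical part of GC content in this difference was not tested.

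Left-out libraries changed the number of called domains in each GC group. Under TMM and without DMSO replicate 1 or 2, 46 and 44 domains of group 2, 35 and 32 of group 3, 13 and 15 of group 4 and 3 and 1 of group 5 were lower. In group 5, 37 were lower without PR-957 replicate 1, and 13 were higher without PR-957 replicate 2. Under library size, group 1 had 11 lower domains without DMSO 1, DMSO 2 or PR-957 1, group 2 had 30 without DMSO 2, group 4 had 9 lower without DMSO 2 and 8 and 7 higher without DMSO 1 and 2, and group 5 had 35 and 33 higher without them. The GC-poor groups held most of the loci that did not depend on a library. In all, 72 loci were lower under both scalings and in every fit without 1 library, with a median width of 31482 bp and a median GC content of 47.8%. They include, picked out after the values were seen, DOCK9, SKIDA1, EGFLAM, TBX3, PAX6, HAND2, TWIST1, OTX2 and PAX5.

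**Figure D2:**
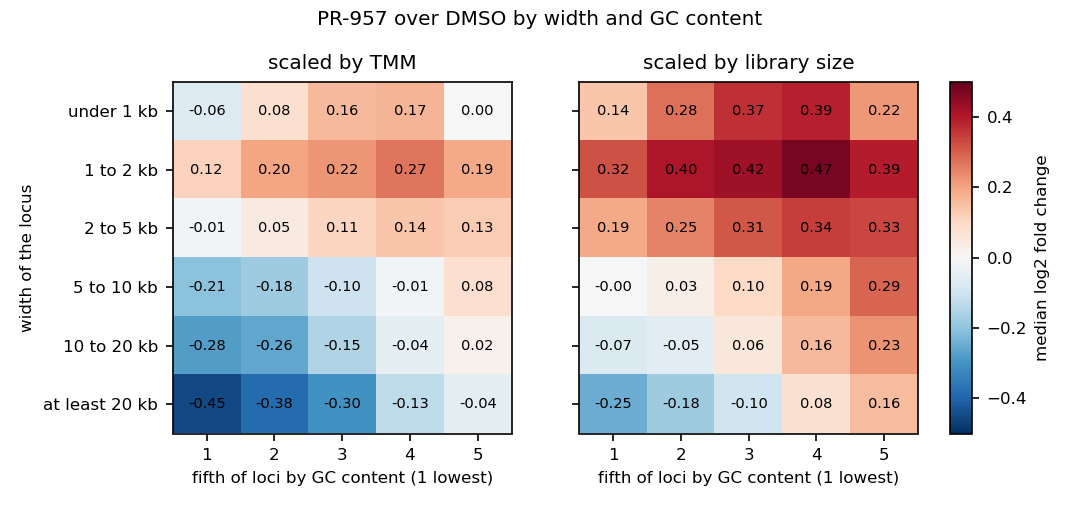
Color and number give the median log2 fold change of PR-957 over DMSO for the loci of each width (lines) and each of 5 equal groups by GC content (columns, 1 the lowest), under TMM at the left and under library size at the right. In loci of at least 20 kb the median runs from -0.45 to -0.045 under TMM and from -0.25 to 0.16 under library size, so that the GC-rich groups turn positive under library size.

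Loci that fell and loci that rose differed in other features too. The 176 loci lower under both scalings had a median width of 28077 bp and a median GC content of 48.1%, 76.7% held a promoter, and 12 lay within 5 Mb of a chromosome end (6.82%). The 304 loci higher under library size had a median width of 14615 bp and a median GC content of 56.9%, 69.1% held a promoter, and 132 lay within 5 Mb of an end (43.4%). Over all tested loci, the median width was 2823 bp and the median GC content 50.6%, 31.9% held a promoter and 17.4% lay within 5 Mb of an end. A locus of H3K27ac, the acetylation of active promoters and enhancers, overlapped 23.3% of the lower loci, 48.4% of those higher under library size and 17.1% of all loci tested. Loci of at least 10 kb are the nearer comparison: 72.8% of the 1455 tested held a promoter, 33.9% overlapped H3K27ac and 21.4% lay within 5 Mb of an end. Against these the lower loci held promoters at a similar rate and less often overlapped H3K27ac or lay near an end, differences that were not tested.

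Promoter loci that overlap, at any point, a locus of H3K4me3, the mark of active and poised promoters, were called more often in both directions. Of 1901 such promoter loci, 249 were lower under TMM (13.1%) and 101 under library size, against 104 (5.10%) and 34 of 2038 promoter loci without H3K4me3. Since wide loci overlap more, the same was counted in loci of at least 10 kb: 228 of 711 with H3K4me3 were lower (32.1%) and 140 of 744 without it (18.8%), and 105 and 56 under library size. Higher under library size were 6.63% of the promoter loci with H3K4me3 and 4.12% of those without it, and 114 and 93 of the loci of at least 10 kb (57 and 41 without DMSO 1, 60 and 36 without DMSO 2). For the promoter loci 64 and 33 were higher without DMSO 1, and 65 and 37 when DMSO 2 was left out. The differences between these shares were not tested. Fewer were called without DMSO replicate 1 or 2: 119 and 103 of the promoter loci with H3K4me3 and 47 and 37 of those without it were lower under TMM, 62 and 15 under library size without DMSO replicate 2, and 19 of the latter without DMSO replicate 1. For the loci of at least 10 kb the counts under TMM were 115 and 103 with H3K4me3 and 71 and 68 without it, and under library size 65 and 29 without DMSO replicate 2 and 36 of those without H3K4me3 without DMSO replicate 1.

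Away from promoters, 43 of 3745 loci in gene bodies (1.15%) and 81 of 4671 between genes (1.73%) were lower under TMM, against 353 of 3939 at promoters (8.96%). Under library size the counts were 20, 21 and 135, and 1.15%, 1.09% and 5.33% were higher, or 15, 17 and 97 loci without DMSO 1 and 13, 14 and 102 without DMSO 2. Among loci of like width the difference was small below 20 kb: 4.14% at promoters and 3.61% away from them were lower under TMM at 5 to 10 kb, and 16.6% and 13.7% at 10 to 20 kb, an order that turned round under library size (0.441% and 0.780%, 2.60% and 5.56%). At 20 kb or more it was 47.0% and 30.0% under TMM and 28.0% and 15.6% under library size. Besides the domains in DOCK9 and near GPAM and MEF2C, the 72 loci that did not depend on a library or a scaling include domains within TGFB2, a growth factor gene, and within PLXNA1, a semaphorin receptor gene, which were picked out after their values were seen. Their log2 fold changes were -0.71 and -1.02 under TMM and -0.50 and -0.81 under library size. Leaving out DMSO replicate 1 or 2, 166 and 140 promoter loci, 26 and 28 in gene bodies and 34 and 36 between genes were lower under TMM. Under library size 77 promoter loci, 11 in gene bodies and 10 between genes were lower without DMSO replicate 2, 11 and 12 of the latter kinds without DMSO replicate 1, and 9 and 12 without PR-957 replicate 1.

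The other marks were read at the loci where H3K27me3 fell under both scalings. Each H3K27me3 locus took the overlapping locus of the other mark with the most counts, so a locus of that mark can count more than once. At 109 of the 176 there was an H3K4me3 locus, with a median log2 fold change of 0.17 under TMM of that mark. Over the 2257 tested H3K27me3 loci that overlap H3K4me3 it was 0.075. For H3K27ac the medians were 0.13 over 41 loci and 0.11 over 2106. For H3K4me1, the mark of enhancers, the median was -0.25 over 101 loci and -0.16 over 1672. Few of these loci passed the test within the other mark. H3K4me3 rose at 3 of the 109 loci, against 7 of the 2257. H3K27ac rose at 1 and fell at 1, against 3 and 3, and H3K4me1 fell at 5 of the 101, against 42 of the 1672. At the loci higher under library size H3K4me1 fell at 5 of 141 too. Across loci, the rank correlation of the log2 fold changes with those of H3K27me3 was -0.09 for H3K4me3, -0.05 for H3K27ac and 0.0 for H3K4me1, weak or absent, and loci are not independent replicates.

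HOX genes, the homeobox genes that set position along the body axis, lie in 8 H3K27me3 loci. Of these loci 6 fell under both scalings, and they hold 37 of the 39 genes. The median width of the list is 95832 bp. Of all loci tested 3.86% and 1.42% were lower under TMM and library size, and of loci of at least 20 kb 43.9% and 25.7%. The HOXC domain is the widest of all loci, 178122 bp, and had 31470.0, 29880.0, 24850.0 and 22260.0 CPM. The HOXD domain with EVX2 had 19870.0, 19010.0, 15160.0 and 13460.0 CPM, and the HOXB domain had 17010.0, 16670.0, 13510.0 and 11940.0 CPM. Each of these domains was lower in both PR-957 libraries, by more than the replicates differed. The log2 fold change was -0.38 at HOXC (edgeR adjusted p = 1.64e-09), -0.44 at HOXD (edgeR adjusted p = 1.88e-12) and -0.40 at HOXB (edgeR adjusted p = 2.30e-10), and -0.18, -0.24 and -0.20 under library size. HOXB13, in a domain of its own, had a log2 fold change of -0.49 (edgeR adjusted p = 2.46e-14) and -0.29 under library size.

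At the 3′ end of the HOXA cluster the loci were small and differed. HOXA2 had 113, 97.8, 74.7 and 57.2 CPM, a log2 fold change of -0.68 (edgeR adjusted p = 4.26e-05). HOXA4, in a small locus beside the HOXA domain, had 20.8, 21.0, 26.96 and 19.1 CPM. HOXA4 did not pass (log2 fold change 0.13, edgeR adjusted p = 0.964), and its groups overlapped. HOX genes held 8.54% and 8.26% of the H3K27me3 counts in DMSO and 7.43% and 6.96% in PR-957, with a median log2 fold change over the loci of -0.43 under TMM and -0.23 under library size, against 0.03 and 0.24 over all loci tested. Under TMM, 10 genes in 3 loci were called lower without DMSO replicate 1 or 2, while the fold changes stayed: -0.34 and -0.42 at HOXC, -0.41 and -0.47 at HOXD and -0.39 and -0.42 at HOXB. Without DMSO replicate 1 the adjusted p was 0.434 at HOXC, 0.137 at HOXD and 0.167 at HOXB, without DMSO replicate 2 it was 0.223, 0.0642 and 0.131, and HOXA2 had 0.0869 without PR-957 replicate 2. Cyclic loess offsets ended the call at HOXB and turned HOXC to 0.021, HOXC also lost the call with the trend on counts per kb removed, and the highest adjusted p over all settings was 0.876 at HOXC, 0.137 at HOXD and 0.466 at HOXB. Under library size, 36 or 37 HOX genes were lower whichever library was left out.

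Developmental transcription factors of organs outside the blood formed the largest group. Of 131 genes with a tested locus, 102 fell under TMM and 68 under library size, in 98 and 64 of 127 loci. Of all loci 3.86% and 1.42% were lower, and of loci of at least 20 kb 43.9% and 25.7%, beside a median width of 27917 bp in the list. TBX1 and GATA5 were higher under library size, where TMM gave them -0.036 and -0.075. Without DMSO 1, DMSO 2 or PR-957 1, 0 genes of the list were higher under library size. The median log2 fold change over 127 loci was -0.36 under TMM and -0.16 under library size. TBX5, a T-box gene of heart and forelimb, had 2479, 2359, 1625 and 1711 CPM, a log2 fold change of -0.54 (edgeR adjusted p = 3.43e-15). NR2F2, a nuclear receptor gene of veins and lymphatics, had 4607, 4659, 3400.0 and 3071 CPM, a log2 fold change of -0.52 (edgeR adjusted p = 2.43e-15). Both stayed lower under library size, at -0.33 and -0.32.

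Wide domains of this group show how far the setting matters. ZIC2 and ZIC5, zinc finger genes of the dorsal neural tube, share a domain with 11130.0, 10710.0, 8799 and 8111 CPM, a log2 fold change of -0.37 (edgeR adjusted p = 1.62e-08). The call was lost without DMSO replicate 1 (log2 fold change -0.34, adjusted p = 0.255), without 2 (-0.40, 0.129), under cyclic loess offsets or with the trend on counts per kb removed, with at most 0.850 over all settings. The GC-richer domain of UNCX, a homeobox gene of the vertebral column, had 10930.0, 10590.0, 10020.0 and 8921 CPM and a log2 fold change of -0.18 under TMM (edgeR adjusted p = 0.0349), which reversed to 0.019 under library size and to a called rise under cyclic loess offsets (0.16, adjusted p = 1.03e-10) and with the trend on counts per kb removed (0.14, adjusted p = 2.90e-08). Its adjusted p was 0.968 without DMSO replicate 1 and 0.802 without DMSO replicate 2, at log2 fold changes of -0.16 and -0.21. EN2, a homeobox gene of the midbrain boundary, shares one of the widest domains with CNPY1 and had 9264, 9044, 7686 and 7047 CPM, a log2 fold change of -0.31 (edgeR adjusted p = 4.18e-06). Its adjusted p was 0.422 and 0.283 without DMSO replicate 1 and 2 (log2 fold changes -0.30 and -0.33), with at most 0.965 under cyclic loess offsets, which turned it to 0.018, and the call was also lost with the trend on counts per kb removed. Over the whole list, 60 genes fell without DMSO replicate 1 and 50 without DMSO replicate 2 under TMM, and 40 without DMSO replicate 2 under library size.

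One of the most covered domains was not called under TMM. ONECUT3, a homeobox gene of the endoderm and nervous system on chromosome 19, had 11100.0, 10890.0, 10930.0 and 9854 CPM, and the groups overlapped. Its log2 fold change was -0.081 under TMM (edgeR adjusted p = 0.723) and 0.12 under library size (edgeR adjusted p = 0.000296), where it was called higher, though not without DMSO replicate 1 (0.119) or 2 (0.228). It was called lower under TMM without PR-957 replicate 1 (-0.15, adjusted p = 6.59e-08), and higher under cyclic loess offsets (0.26) and with the trend on counts per kb removed (0.25), so its direction depends on the setting.

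Transcription factors of non-myeloid blood lineages carried the mark at 16 of 28 genes, and 7 fell under TMM and 4 under library size, with a median log2 fold change over the list of -0.27 under TMM and -0.06 under library size. The list has a median width of 17339 bp, and 15.7% and 3.54% of all loci of 10 to 20 kb were lower. The 4 genes lower under library size lie in domains over 20 kb wide, where 43.9% and 25.7% of all loci were lower. GATA3, a factor of T cells, had 3378, 3422, 2538 and 2425 CPM, a log2 fold change of -0.45 (edgeR adjusted p = 1.12e-11). PAX5, which commits cells to the B lineage, had 1943, 1942, 1517 and 1417 CPM, a log2 fold change of -0.41 (edgeR adjusted p = 1.04e-08). EOMES, a T-box factor of natural killer and memory T cells, had 589, 593, 425 and 401 CPM, a log2 fold change of -0.52 (edgeR adjusted p = 5.31e-10). In all 3 the replicates lay close together and the groups apart, and under library size they fell with log2 fold changes of -0.25, -0.20 and -0.31. TAL1, a factor of erythroid cells and stem cells, had a log2 fold change of -0.35 (edgeR adjusted p = 3.97e-06) and -0.15 under library size, and its call was lost without DMSO replicate 2 (adjusted p = 0.0792), under cyclic loess offsets or with the trend on counts per kb removed (at most 0.0992 over all settings). ZFPM1, the cofactor gene of GATA1, was the only gene of the list higher under library size (0.34, and 0.14 under TMM), and it was not called without DMSO replicate 1. In the fits without DMSO replicate 1 or 2, 4 genes fell under TMM.

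The KMT2A target genes named by the study lay in 7 loci, of which 3 fell under TMM (the HOXA domain, HOXA2 and GNAS) and 2 under library size, beside 3.86% and 1.42% of all loci and 43.9% and 25.7% of those over 20 kb, as the HOXA domain and GNAS are. VENTX, a homeobox gene of myeloid cells in a locus of 62.0% GC, had 146, 140, 176 and 159 CPM, and was called higher under library size (log2 fold change 0.43) but not under TMM (0.23, edgeR adjusted p = 0.350). AXL, CDK6, CDK9, FLT3, MEF2C, PBX3 and RUNX2 had no locus within 2 kb of a TSS. The median over the list was -0.39 under TMM and -0.19 under library size. Leaving out DMSO 1 or PR-957 2, 2 loci fell under TMM and 1 under library size, and without DMSO replicate 2 VENTX was not called. MEIS1 had 29.8, 20.6, 16.2 and 23.6 CPM at a narrow locus where the groups overlapped (log2 fold change -0.32, edgeR adjusted p = 0.809).

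Signaling genes carried the mark at 56 of 68 genes, in narrower loci with a median width of 11044 bp. Of 55 tested genes for secreted ligands and antagonists, 11 fell under TMM, beside 3.86% of all loci and 15.7% of loci of 10 to 20 kb, with a median log2 fold change of -0.15 under TMM and 0.055 under library size. SFRP2, an antagonist of WNT signals, had a log2 fold change of -0.40 (edgeR adjusted p = 0.000269), RSPO2, which enhances WNT signals, one of -0.59 (edgeR adjusted p = 0.000394), and the hedgehog ligand gene SHH one of -0.33 (edgeR adjusted p = 0.000225). GDF6, a BMP family ligand gene of joints, had -0.29 (edgeR adjusted p = 9.08e-05). Under library size edgeR called 0 of these genes lower, and 4 had an unadjusted p under 0.05. DESeq2 with its own factors called 9 lower, beside 347 lower and 8 higher loci in all. It left the adjusted p of 10300 loci missing. BMP8A and WNT4 were higher under library size, 0 without DMSO replicate 1 and 1 without DMSO replicate 2 or PR-957 replicate 2. Under TMM 3 genes were called lower without DMSO replicate 1 and 2 without DMSO replicate 2, while the fold changes kept their sign (-0.29 and -0.28 at GDF6, -0.34 and -0.47 at SFRP2). The adjusted p was 0.122 at SFRP2 and 0.305 at GDF6 without DMSO replicate 1, and 0.165 at RSPO2, 0.250 at SHH and 0.327 at GDF6 without DMSO replicate 2, with at most 0.208, 0.165, 0.269 and 0.998 at SFRP2, RSPO2, SHH and GDF6 over all settings.

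Neuronal receptor and channel genes split by scaling. Of 42 tested genes, 6 fell under TMM, among them GAD1 and GAD2, which make the transmitter GABA, with log2 fold changes of -0.33 and -0.41 (edgeR adjusted p = 7.31e-05 and 0.000737), and the potassium channel gene KCNA1 (-0.46, edgeR adjusted p = 0.00189). The list has a median width of 9357 bp, and of all loci of 5 to 10 kb and of 10 to 20 kb 3.89% and 15.7% were lower under TMM, and 67 of 2161 and 117 of 961 higher under library size. DESeq2 with its own factors also called 6 lower. Under library size edgeR called 0 lower (3 at an unadjusted p under 0.05), and 5 were higher, among them GRIN1, CACNA1G, KCNJ4 and SLC17A7. GRIN1, a subunit of the NMDA receptor, had 244, 247, 277 and 281 CPM, a log2 fold change of 0.19 under TMM (edgeR adjusted p = 0.342) and 0.39 under library size (edgeR adjusted p = 5.96e-05). These 4 loci have a GC content of 56.7% to 58.0%, those of GAD1, GAD2 and KCNA1 one of 47.2% to 52.4%, while that of TH, also lower under TMM, has 62.1%. Over the list the median log2 fold change was -0.079 under TMM and 0.13 under library size. When DMSO replicate 1 or 2 was left out, 0 genes fell under TMM and 4 were higher under library size, and 2 fell without PR-957 replicate 2. With DMSO replicate 1 and 2 left out in turn, the adjusted p was 0.0867 and 0.0847 at GAD1, 0.0544 and 0.0517 at GAD2, and 0.0581 and 0.0558 at KCNA1. GAD2 had 0.0798 without PR-957 replicate 2 and KCNA1 had 0.216 without PR-957 replicate 1, and the 3 genes had at most 0.227, 0.247 and 0.244 over all settings.

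Growth suppressor genes carried the mark at 6 of 23 genes, and 2 of the 6 fell under both scalings, both over 20 kb wide, where 43.9% and 25.7% of all loci were lower. GADD45G, a stress-induced inhibitor of growth, had 178, 168, 111 and 112 CPM, a log2 fold change of -0.63 (edgeR adjusted p = 6.26e-07), and -0.43 under library size. PTCH1, the hedgehog receptor and a tumor suppressor, had 435, 400.0, 312 and 299.7 CPM, a log2 fold change of -0.45 (edgeR adjusted p = 1.64e-06), and -0.24 under library size. PR-957 libraries were below the DMSO libraries at both, and both were lower under TMM whichever library was left out. Under library size 0 of the 2 were called by edgeR without DMSO 1 or PR-957 1, and 1 when PR-957 2 was left out. With all 4 libraries both had an unadjusted p under 0.05 under library size, and DESeq2 with its own factors called both. Over the list the median was -0.14 under TMM and 0.067 under library size, and CDKN2A, the gene of the cell cycle inhibitor p16, had no locus.

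Genes of the Polycomb machinery itself held 8 loci at 36 genes. PCGF1, a subunit of Polycomb repressive complex 1, shares a locus with the homeobox gene TLX2 and had 330, 335, 275 and 257 CPM, a log2 fold change of -0.32 (edgeR adjusted p = 0.00413). It did not pass under library size (-0.12), without DMSO replicate 1 (adjusted p = 0.117) or 2 (0.193) or without PR-957 replicate 2 (0.0798), with at most 0.507 over all settings. The chromodomain genes CBX2 and CBX8 were not called (log2 fold changes -0.19 and -0.13 under TMM, and 0.015 and 0.069 under library size). Both were lower with TMM from loci under 2 kb and without PR-957 replicate 1, at -0.31 and -0.19 in the latter. CBX8 was called lower with the GC trend removed (-0.22, edgeR adjusted p = 0.0272). It was called higher with the trend on counts per kb removed (0.13, edgeR adjusted p = 0.0170), so its direction depends on the setting. EZH2 and SUZ12, of Polycomb repressive complex 2, had no locus. The median over the list was -0.13 under TMM and 0.072 under library size.

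Imprinted genes held 10 loci at 27 annotated genes, and 2 fell under TMM, both over 20 kb wide, as 43.9% of all loci of that width did. GNAS, which encodes a stimulatory G protein subunit, had 504, 479, 398 and 352 CPM, a log2 fold change of -0.39 (edgeR adjusted p = 1.99e-05). The domain of the growth factor gene IGF2, which also covers INS and TH, had 1232, 1255, 1130.0 and 995 CPM, a log2 fold change of -0.23 (edgeR adjusted p = 0.0137). Neither passed under library size, with -0.19 and -0.026, where edgeR called 0 of the list and 1 gene was lower at an unadjusted p under 0.05. DESeq2 with its own factors called 2. GNAS had an adjusted p of 0.0572 without DMSO replicate 1, and IGF2 had 0.436 and 0.554 without DMSO replicate 1 and 2 and 0.133 without PR-957 replicate 2, with at most 0.0755 and 0.997 over all settings. The median over the list was -0.14 under TMM and 0.067 under library size.

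Of the myeloid genes, the stem cell genes CD34 and KIT held loci that were not called, with log2 fold changes of -0.32 and -0.17 under TMM (edgeR adjusted p = 0.387 and 0.884) and -0.11 and 0.039 under library size. Over the 3 loci of the list the median was -0.32 under TMM and -0.11 under library size. ZNF536 was the one called locus of 3 at 251 zinc finger genes of chromosome 19 (log2 fold change -0.24, edgeR adjusted p = 0.0463), and it did not pass without DMSO replicate 1 (0.559) or 2 (0.3898), without PR-957 replicate 2 (0.265) or under library size (-0.032), with at most 0.927 over all settings. Among genes of antioxidant response to NFE2L2, ABCC3 and AKR1B10 held a locus, and ABCC3, an export pump, was higher under library size (0.41) and not called under TMM (0.21, edgeR adjusted p = 0.198). HLA-DQB1 alone of 13 MHC class II genes held a locus (log2 fold change 0.48, edgeR adjusted p = 0.517), as did RPL38 alone of the ribosomal protein genes (0.12, not called). The 53 clustered protocadherin genes held 0 loci, and so did PSMB8 and GAPDH.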

How the data were processed

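Counts on intervals were deposited by the authors, on build hg38. The submitters' processing notes name Trimmomatic 0.39, Bowtie2 2.2.5, Picard 2.27.1, SAMtools 1.7, SEACR 1.3 and deepTools 3.5.1. The program that counted and the handling of duplicates are not given in the sources used here. Overlapping H3K27me3 intervals (33437) were merged into 13899 loci, each with the count of its widest interval. Loci were tested with edgeR 4.0.16 (quasi-likelihood, filterByExpr with a minimum count of 10, prior count 2, common biological coefficient of variation 14.9%) on R 4.3.3 with limma 3.58.1, and with DESeq2 1.42.0, where the adjusted p of 10300 loci stayed missing. Tables were made with Python 3.11.15. Loci were called at an adjusted p of 0.05, and a fold of 1.5, a mean count of 50 and a loess span of 0.3 were used where named. The code was tested on simulated data.

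Promoters were protein-coding starts of GENCODE 44 within 2 kb of a locus. Members and lists were chosen with earlier results of these data known. Named were the 10 lower and 10 higher loci with the smallest p-values past 0.05 under TMM with both PR-957 libraries on one side of both DMSO libraries, called by genes with a start within 2 kb or else the nearest gene, the 5 widest loci and the 5 with the highest mean count, and in each list up to 4 genes with the smallest p-values and up to 2 with the highest mean. HOXA9, HOXA13, MEIS1, PBX3, MEF2C, CDKN2A, PAX5, GATA3, EZH2, SUZ12, PSMB8, SPI1 and GAPDH were named whatever their values. Exceptions are said where they stand. Tried instead were library size, median-of-ratios and loess scaling, TMM from narrow or wide loci, other count filters, the removal of trends on GC content or counts per kb, the interval with the highest count, every interval, chromosomes 1 to 22, a replicate block, DESeq2 and leaving out each library.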

Additional observations from a re-analysis of the deposited data

How the results depend on the processing

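Of 498 H3K27me3 loci called, the H3K27me3 loci lower were 477 and the H3K27me3 loci higher 21. Leaving out 1 library gave 212 to 470 called, 204 to 457 lower and 5 to 38 higher. Library size gave 176 lower and 304 higher, cyclic loess offsets 228 and 177, TMM from loci under 2 kb 1096 and 3 (1099 H3K27me3 loci called), TMM from loci of at least 10 kb 257 and 159, the trend on counts per kb removed 220 and 165, every interval tested by itself 1620 and 262 (1882 called), and a fold of at least 1.5 84 and 10 (94 called). Higher loci numbered 13 without a count filter, 166 at a mean count of at least 50, 8 with the GC trend removed and 8 by DESeq2. A replicate block gave 497 called, 478 lower and 19 higher, and 173 lower and 300 higher under library size. The replicate numbers were not shown to pair samples, as the deviations correlated at -0.004. Under library size, leaving out 1 library gave 98 to 193 lower and 129 to 218 higher.

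The share of counts in wide loci, of at least 10 kb, differed by -2.49 points, by -3.36 for 20 kb and -1.66 for 5 kb, and by -3 to -1.98 with a library left out. Wide minus narrow loci was -0.31, -0.38 to -0.25 with a library left out, -0.051 at a mean count of at least 50, and reversed to 0.14 under cyclic loess offsets. The GC contrast of 0.41 in loci of at least 20 kb was 0.27 with the GC trend removed and 0.30 to 0.45 with a library left out.

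Reversed loci were UNCX under library size (0.019), cyclic loess offsets (0.16, edgeR adjusted p = 1.03e-10) and the trend on counts per kb removed (0.14, edgeR adjusted p = 2.90e-08), WNT10A under loess (0.031) and the density trend removed (0.028), IGF2, INS and TH under the latter (0.0042), and HOXC (0.021) and EN2 (0.018) under loess. Of 47 named called loci, 9 passed at a fold of at least 1.5, 33 kept the call under library size, 33 under loess, 32 with the density trend removed, 37 with TMM from loci under 2 kb, and 24, 20, 39 and 42 without DMSO 1, DMSO 2, PR-957 1 and PR-957 2. The cause was not tested.

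The replicate block and left-out libraries under library size, the left-out counts of classes and lists, wide minus narrow under library size and the GC contrast were added after the data were seen.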

Other observations

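H3K27me3 loci near the ends of the chromosomes differed from loci in the interior. Of 818 tested loci within 2 Mb of a chromosome end, 83 were higher under library size (10.1%), against 49 of 1334 at 2 to 5 Mb (3.67%), 82 of 3344 at 5 to 20 Mb (2.45%) and 90 of 6859 farther in (1.31%). Under TMM 5, 3, 5 and 8 of these loci were higher, so that nearly all of these calls depend on the scaling. The order also held within the GC-richest group of loci, where 116 of 931 within 5 Mb of an end were higher under library size (12.5%), against 71 of 1654 beyond it (4.29%). Inside this group the loci near an end were still GC-richer, with a median of 60.49% against 58.25%. They were also wider, with a median of 3658 bp against 2618 bp, and held more counts per kb. A difference at equal GC content, width and coverage was not tested. Without DMSO replicate 1 or 2, 43 and 42 loci within 2 Mb of an end were higher under library size, and 61 and 61 of the GC-richest loci within 5 Mb against 35 and 30 beyond it.

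Chromosome 19 had the largest share of H3K27me3 loci higher under library size, and other chromosomes went the same way to a smaller extent. Of its 561 tested loci, 63 were higher under library size (11.2%), against 5.50% on chromosome 16, 5.32% on chromosome 17 and 2.46% of all loci, and edgeR called 0 lower, with 0 lower at an unadjusted p under 0.05 as well, while TMM gave 4 lower and 3 higher and DESeq2 with its own factors 3 lower and 1 higher. Its share of the counts was 7.08% and 7.07% in DMSO and 8.33% and 8.11% in PR-957, while that of chromosome 22 was 2.09% and 2.07% against 2.33% and 2.31%. The median log2 fold change was 0.15 under TMM on chromosome 19 and 0.14 on chromosome 20. The share of chromosome 19 was also higher in both PR-957 libraries for its loci outside the GC-richest group, 1.95% and 1.97% against 2.28% and 2.30%. When DMSO replicate 1 or 2 was left out, 30 and 33 loci of the chromosome were higher under library size.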
